A study of Homo sapiens with 6 samples.

Results

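The carnitine shuttle is the set of transporters and acyltransferases that moves long-chain fatty acids into mitochondria as carnitine esters. Its 8 genes, SLC22A5, CPT1A, CPT1B, CPT1C, SLC25A20, CPT2, CRAT and CROT, were chosen by name for their place in this route. That choice was made with earlier results of these data known. All 8 were found among the 23002 genes measured. RNA was sequenced from U251, an established human glioblastoma cell line made stable for a lentiviral short hairpin under puromycin selection. A non-targeting hairpin (sh-NC, 3 samples) served as the control for a hairpin against TRAF2 (sh-TRAF2, 3 samples), an adaptor and ubiquitin ligase of tumor necrosis factor receptors. The comparison asked which transcripts of fatty acid import differed after TRAF2 knockdown, in a study of lipid metabolism in glioblastoma. No source used here states whether the 3 samples of a group were separate cultures or which TRAF2 hairpin was sequenced. The p-values below therefore measure the spread between these samples.

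Free carnitine enters the cell through SLC22A5 (OCTN2), the plasma membrane carnitine transporter. On the outer mitochondrial membrane, carnitine palmitoyltransferase 1 exchanges the coenzyme A of a long-chain acyl group for carnitine, and its inhibition by malonyl-CoA makes it the regulated step of fatty acid oxidation. CPT1A is the widespread isoform, CPT1B the muscle isoform and CPT1C a neuronal, endoplasmic reticulum form with little catalytic activity. SLC25A20 (CACT) carries acylcarnitine across the inner membrane in exchange for free carnitine, and CPT2 on its matrix side returns the acyl group to coenzyme A for beta-oxidation. CRAT and CROT are the acetyltransferase and the octanoyltransferase, which transfer short and medium chains in mitochondria and peroxisomes.

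TRAF2 itself was read first as a check of the labels. Its level in FPKM (read fragments per length of transcript and per depth of library, a scale corrected for gene length) was 15.1, 18.4 and 15.3 in the sh-NC samples and 3.26, 3.22 and 3.33 in the sh-TRAF2 samples. The groups did not overlap, and TRAF2 was 79.9% lower in sh-TRAF2, with a log2 fold change of -2.27 (SE 0.079, limma adjusted p = 1.16e-06). Reads assigned to genes came to between 33999558 and 36823562 per sample. Correlations of log2 values were 0.993 to 0.995 between samples of 1 group and 0.979 to 0.985 between groups. Of the 9 glioma and astrocyte markers checked, 8 were in the table and 6 reached a mean of 0.5 FPKM. VIM made up most of their sum and had means of 1242 ± 38.9 FPKM in sh-NC and 1582 ± 24.8 in sh-TRAF2 (SD, n = 3). CD44 had means of 189 ± 2.51 and 179 ± 3.03, SOX2 of 25.4 ± 1.19 and 27.7 ± 1.05. EGFR was at 31.8 ± 0.763 and 14.3 ± 0.607, and NES at 5.35 ± 0.528 and 11.7 ± 0.227, so the markers went different ways. Their part in the shuttle values was not tested. OLIG2 and S100B stayed at or below 0.113, and GFAP ran from 0.334 to 1.62. The summed level of these markers was 1458 to 1535 in sh-NC and 1792 to 1837 in sh-TRAF2. Of the 10 markers of other cell types, 8 were in the table, and all were at or below 0.202 FPKM except CD68 (14.9 to 17.6).

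The targets of both TRAF2 hairpins listed by the study lie in coding exons of TRAF2 on chr9 (GRCh38), at chr9:136916579-136916599 in exon 7 of 11 for the first and at chr9:136920480-136920500 in exon 8 for the second. They are shown because a stretch of the first recurs in CPT1A. Capitals mark bases 10 to 16 of the first target, a stretch picked with earlier results of these data known.
sh-TRAF2#1: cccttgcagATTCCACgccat
sh-TRAF2#2: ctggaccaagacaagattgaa

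Of the 8 shuttle genes, 7 had a mean of at least 0.5 FPKM and were tested with limma along with the other genes above that level. CPT2, CPT1A and CRAT were lower in sh-TRAF2, SLC25A20 was higher, and SLC22A5, CPT1C and CROT did not pass an adjusted p of 0.05. CPT1B was below the level for testing. The background of such calls was wide. Among all 11870 genes tested, 44.6% passed in either direction, 20.9% as lower and 23.7% as higher, so that 4 of 7 shuttle genes passing is near the share over all genes. By direction, 42.9% of the 7 were lower and 14.3% higher. The log2 fold changes of the 7 genes had a median of -0.31, against 0.019 over all genes tested. Beyond a change of 1 on the log2 scale, 1.72% of genes passed (0.733% lower and 0.986% higher), and CPT2 was the 1 shuttle gene among them. Groups that did not overlap were found in 55.5% of the genes tested and in 5 of the 7 shuttle genes. Because the members were chosen with earlier results known, these comparisons with all genes are a description. In bulk RNA, fewer cells expressing a gene and less of its RNA per cell cannot be told apart.

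**Figure D1:**
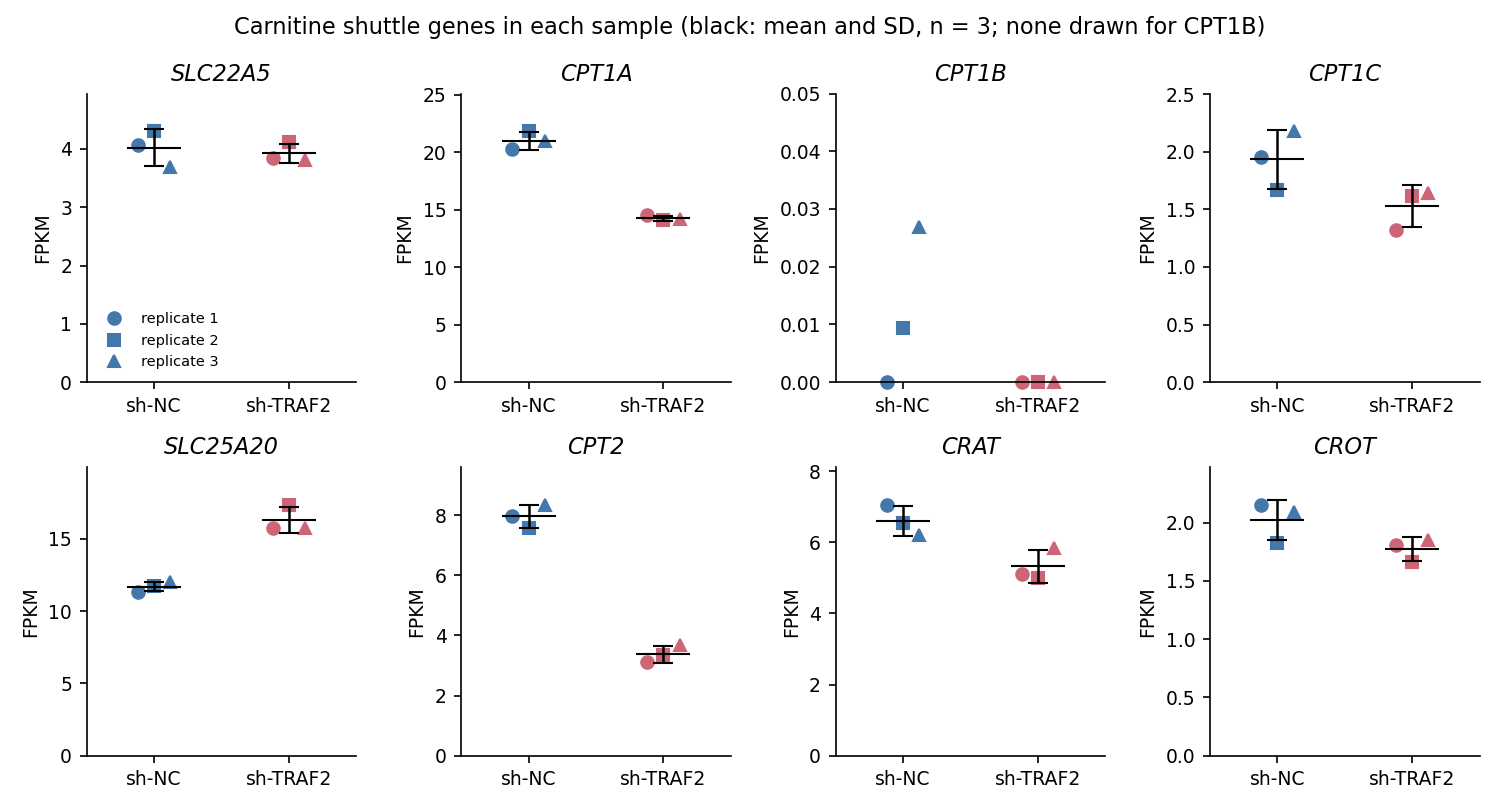
FPKM (linear axis from 0, with its own range in each panel) of the 8 shuttle genes in the 3 sh-NC samples (blue) and the 3 sh-TRAF2 samples (red), with symbols for the replicates and black bars for mean and SD. CPT2 and CPT1A sit lower in every sh-TRAF2 sample, SLC25A20 sits higher in every one, and SLC22A5 and CROT overlap.

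SLC22A5, the entry point for carnitine, was measured at 4.07, 4.30 and 3.69 FPKM in sh-NC and at 3.84, 4.11 and 3.81 in sh-TRAF2. The samples of both groups lay in the same range. The log2 fold change was -0.03 with a 95% confidence interval from -0.21 to 0.14 (limma adjusted p = 0.747). Each value rested on 450 to 518 reads. The gene lies on the plus strand at chr5:132369752-132395614 (GENCODE release 29, GRCh38), where a non-coding gene on the other strand, MIR3936HG, shares 0.571% of its exon bases.

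CPT1A, the malonyl-CoA-sensitive gate, was the most abundant shuttle gene in sh-NC. Its FPKM was 20.3, 21.9 and 21.0 in sh-NC and 14.5, 14.1 and 14.2 in sh-TRAF2. All sh-TRAF2 samples lay below all sh-NC samples, and the mean went from 21.0 ± 0.783 to 14.3 ± 0.219 (SD, n = 3). CPT1A was thus 32.1% lower, with a log2 fold change of -0.55 (SE 0.045, 95% confidence interval -0.66 to -0.45, limma adjusted p = 4.9e-05). It took rank 544 among the 11870 genes ordered by fall. Between 2839 and 4589 reads stood behind each value, the deepest coverage of the family. CPT1A lies on the minus strand at chr11:68754620-68844410.

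ATTCCAC was searched on the sense strand of 1 transcript a gene, the coding one with the longest 3′UTR. It occurs in the 3′UTR of 10.7% and in the coding part of 8.32% of 10846 genes tested. These shares are for this picked stretch alone, and no other stretch of either target was searched. Among the shuttle genes ATTCCAC was found in CPT1A, once in the coding part and once in the 3′UTR. Here the stop codon is counted with the 3′UTR, and the latter match starts on its last base. The transcripts searched of the other 7, CPT2 included, do not hold these letters. The coding match lies in exon 9 of 19 at chr11:68793365-68793391, and the other in exon 19 at chr11:68757628-68757654, where it begins at base 3 counted from the first base of the stop codon. Both windows are on the minus strand and read with the transcript, with the match in capitals.
CPT1A coding: gggatccacgATTCCACtctgctccgc
CPT1A exon 19: ccaaaaagtaATTCCACtggagctgct
A match is a description of letters, and whether either hairpin acts there was not tested.

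CPT1B, the muscle isoform, was listed at 0, 0.0093 and 0.0269 FPKM in sh-NC and at 0 in every sh-TRAF2 sample. These values stood for 0, 1 and 3 reads against none, so both groups were at or under a floor of 3 reads and no fold change was taken. At chr22:50568861-50578465 it shares 66.4% of its exon bases with the readthrough gene CHKB-CPT1B on the same strand. How reads shared by the 2 genes were counted is not given in the sources used here. CHKB-CPT1B had 5, 2 and 0 reads in sh-NC and none in sh-TRAF2, and CHKB had 1 read in 1 of the 6 samples. In the deposited descriptions the texts of CPT1B and CHKB-CPT1B are swapped. The deposited gene number of CPT1B led to a CPT1B transcript, and its deposited pathways include fatty acid degradation. CHKB-CPT1B has no pathway listed. The isoform's low value is thus tied to its symbol, gene number and pathways, and not to its description.

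CPT1C, the neuronal form, was low. It was read at 1.96, 1.67 and 2.18 FPKM in sh-NC and at 1.32, 1.62 and 1.65 in sh-TRAF2. The groups touched closely without overlapping, since the lowest sh-NC sample stood at 1.67 and the highest sh-TRAF2 sample at 1.65. The log2 fold change of -0.32 (SE 0.13, 95% confidence interval -0.62 to -0.02) did not pass the correction over all genes (limma adjusted p = 0.0774). Without sh-NC replicate 2 the fold change was -0.42 and the limma adjusted p was 0.0361. Its 172 to 303 reads per sample made it the least covered shuttle gene that was tested. CPT1C lies on the plus strand at chr19:49690898-49713731.

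Across the 3 isoforms, the summed CPT1 level was 23.0 ± 0.66 FPKM in sh-NC and 15.8 ± 0.0901 in sh-TRAF2 (SD, n = 3). CPT1A made up 91.2%, 92.9% and 90.5% of that sum in sh-NC. In sh-TRAF2 it made up 91.7%, 89.7% and 89.6%. The shares overlapped between groups (two-sided exact permutation p = 0.3). The sum takes CPT1B as listed, although how the reads it shares with CHKB-CPT1B were counted is not known.

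SLC25A20, the inner membrane carrier, was the shuttle gene that rose. It was measured at 11.34, 11.74 and 11.99 FPKM in sh-NC and at 15.77, 17.37 and 15.79 in sh-TRAF2. Every sh-TRAF2 sample stood above every sh-NC sample, and the mean went from 11.7 ± 0.326 to 16.3 ± 0.92 (SD, n = 3). This is 1.40-fold higher, or a log2 fold change of 0.48 (SE 0.054, 95% confidence interval 0.35 to 0.60, limma adjusted p = 2.47e-04). Its rank among the rises was 909. The gene lies on the minus strand at chr3:48856931-48898993 and shares no exon bases with another annotated gene.

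CPT2, the matrix-side enzyme that ends the shuttle, changed most. It was read at 7.96, 7.58 and 8.34 FPKM in sh-NC. In sh-TRAF2 it was read at 3.12, 3.34 and 3.67. The highest sh-TRAF2 sample was far under the lowest sh-NC sample, with a mean of 7.96 ± 0.382 against 3.38 ± 0.28 (SD, n = 3). CPT2 was 57.6% lower, a log2 fold change of -1.22 (SE 0.075, 95% confidence interval -1.39 to -1.04, limma adjusted p = 1.28e-05). It was the fall of rank 39 among the 11870 genes tested. Reads ran from 732 to 837 in sh-NC and from 293 to 348 in sh-TRAF2.

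CPT2 lies on the plus strand at chr1:53196429-53214197, and 2 genes share exon bases with it on the other strand. C1orf123 (CZIB in the deposited table) shares 99 bases, or 0.947%, and the antisense RNA AL606760.2 shares 11.01%. Whether strand was used in counting is not stated, so reads in these bases cannot be told apart. CZIB was itself lower, at 26.5 ± 0.685 FPKM in sh-NC and 20.3 ± 0.484 in sh-TRAF2 (SD, n = 3), with a log2 fold change of -0.38 (limma adjusted p = 2.07e-04). The part of these shared bases in the CPT2 value was not tested. The transcript of CPT2 that was searched does not hold ATTCCAC, the stretch of the sh-TRAF2#1 target found in CPT1A. That transcript has 2746 bases, 1794 of them coding, while the exons of all CPT2 transcripts together cover 10452. The remaining bases were not searched.

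The start-site windows of 6 of the 8 shuttle genes were matched in RefSeq (GRCh38.p14). Motifs were searched on both strands as exact letters, and only inside these short windows around the start site. Sites further away or with other letters were not searched. AGGTCA, the hexamer read by PPAR and other nuclear receptors, was in none of the 6 genes' windows and in 13.8% of all 35116 windows. GGGCGG, a GC box, was in the windows of 5 of the 6 (all but CPT1A) and in 45.0% of all windows. CGGAAG, a core read by ETS-family factors, was in those of CPT1C, SLC25A20 and CPT2 and in 19.5% of all windows. Genes were counted once although CPT1C has several windows, so counts of genes and shares of windows are not directly comparable. The matches of CPT2 at -18 from the start site (window chr1:53196574-53196873, plus strand) and of SLC25A20 at -92 (window chr3:48898833-48899132, minus strand) are printed because these genes changed in opposite directions. CPT2 has 2 more matches, at -62 and, on the other strand, at -115. Capitals mark the motif. The second SLC25A20 match, at -76, overlaps a GGGCGG.
CPT2: ttacaggggcCGGAAGtggcctgcgg
SLC25A20 at -92: gggccgaggcCGGAAGcagccccggg
SLC25A20 at -76: cagccccgggCGGAAGccctaccgtg
The lower CPT2 and the higher SLC25A20 thus hold the same letters, and nothing follows from this about a factor.

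CRAT, the acetyltransferase that buffers acetyl-CoA against carnitine, was measured at 7.06, 6.55 and 6.21 FPKM in sh-NC and at 5.12, 5.01 and 5.85 in sh-TRAF2. The groups did not overlap, although sh-TRAF2 replicate 3 came near the lowest control. CRAT was 19.4% lower, with a log2 fold change of -0.31 (SE 0.078, 95% confidence interval -0.49 to -0.13, limma adjusted p = 0.0131). It lies on the minus strand at chr9:129094810-129111189 and shares 1.97% of its exon bases with PTPA on the other strand, a gene with a log2 fold change of -0.15 (limma adjusted p = 0.0378). An antisense RNA, AL158151.2, shares another 0.894%.

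CROT, the peroxisomal octanoyltransferase that readies shortened chains for export, stood at 2.16, 1.83 and 2.09 FPKM in sh-NC and at 1.81, 1.66 and 1.85 in sh-TRAF2. The ranges overlapped, since sh-NC replicate 2 lay below the highest sh-TRAF2 sample. The log2 fold change was -0.18 with a 95% confidence interval from -0.40 to 0.05 (limma adjusted p = 0.171). Between 383 and 522 reads stood behind each value. CROT lies on the plus strand at chr7:87345681-87399795.

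**Figure D2:**
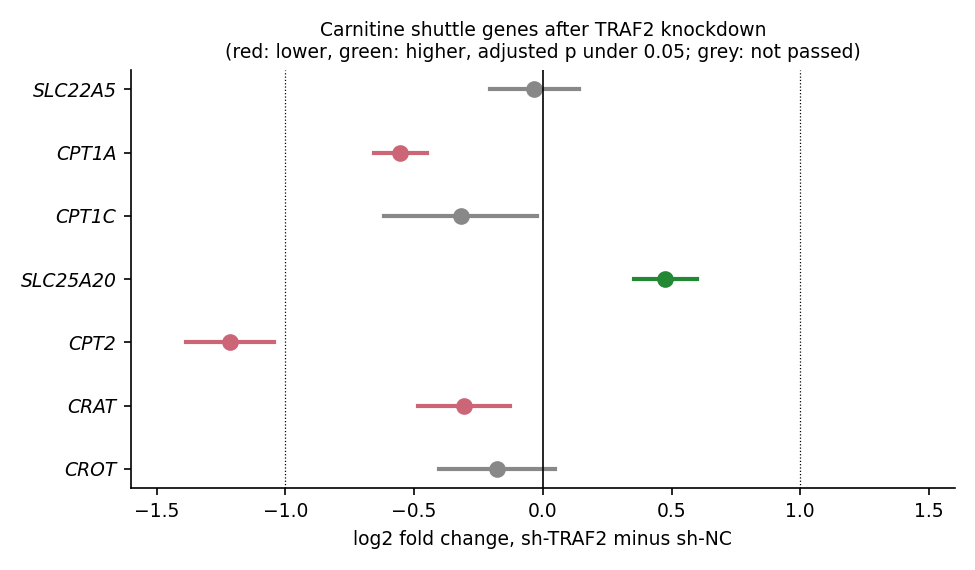
Log2 fold change (horizontal axis, sh-TRAF2 minus sh-NC) of the 7 shuttle genes tested, as points with 95% confidence intervals, and dotted lines at a change of 1 on the log2 scale. The interval of CPT2 lies wholly beyond that line on the lower side, CPT1A and CRAT are lower within it, and SLC25A20 is higher.

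On the length-corrected scale the order of the genes in sh-NC was CPT1A, SLC25A20, CPT2, CRAT, SLC22A5, CROT, CPT1C and CPT1B. The neighbours CROT and CPT1C overlapped between samples, and no other neighbours did. In sh-TRAF2 the order was SLC25A20, CPT1A, CRAT, SLC22A5, CPT2, CROT, CPT1C and CPT1B, with no overlap between neighbours. CPT2 had moved from the third place to the fifth, and SLC25A20 had passed CPT1A. The summed level of all shuttle genes was 55.3 ± 0.393 FPKM in sh-NC and 46.5 ± 0.901 in sh-TRAF2 (SD, n = 3).

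The steps did not move by the same factor. The FPKM of CPT1A divided by that of CPT2 was 2.55, 2.88 and 2.51 in sh-NC and 4.66, 4.23 and 3.88 in sh-TRAF2. All sh-TRAF2 ratios were above all sh-NC ratios, and the log2 ratio of CPT2 to CPT1A differed by -0.66 between groups (two-sided exact permutation p = 0.1, the smallest that 3 against 3 samples can give). SLC25A20 over CPT2 was 1.42, 1.55 and 1.44 in sh-NC and 5.06, 5.21 and 4.30 in sh-TRAF2. The carrier thus went from a mean of 1.47 ± 0.0687 times the level of CPT2 to 4.85 ± 0.488 times (SD, n = 3). On the log2 scale this ratio differed by 1.69 between groups (two-sided exact permutation p = 0.1). This second ratio was chosen after the values had been seen. Both follow from the fold changes given above and add no separate evidence.

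**Figure D3:**
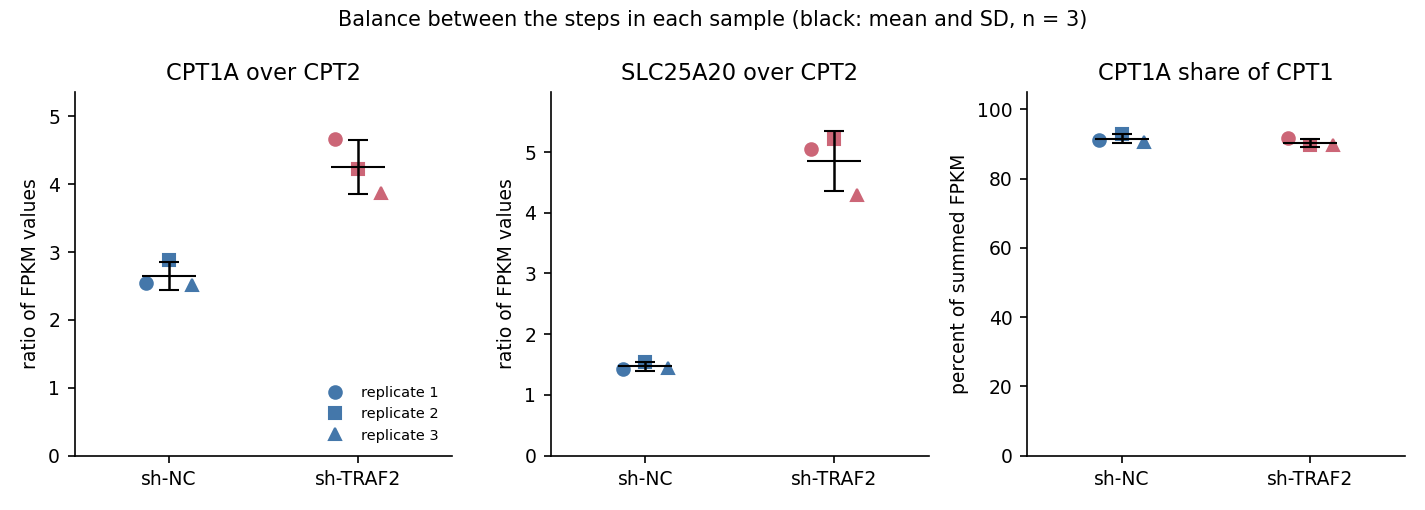
Ratios of FPKM values between shuttle steps (left and middle) and the share of CPT1A in the summed CPT1 level in percent (right), with points for samples and black bars for mean and SD. Both ratios to CPT2 are higher in every sh-TRAF2 sample, while the CPT1A share stays between 89.6% and 92.9% in all 6 samples.

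The shuttle genes also differed in how closely they followed CPT2 over the 6 samples. Pearson's r of log2 values with CPT2 was 0.978 for CPT1A, 0.893 for CRAT, 0.811 for CPT1C and 0.770 for CROT. It was 0.155 for SLC22A5 and -0.969 for SLC25A20. Most of this likeness is the difference between the 2 groups, which all 6 points share, so these values are a description. CPT1A took rank 493 of 11869 genes in this order. The closest 3 genes were RERE, a transcriptional corepressor (r = 0.9997), TKT, the transketolase of the pentose phosphate pathway (r = 0.9996), and PSMA4, a proteasome subunit (r = 0.9994). TKT stood at 295 ± 10.9 FPKM in sh-NC and at 165 ± 9.71 in sh-TRAF2 (SD, n = 3).

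Genes around the shuttle were read from 6 lists, of which 57 of 74 genes were tested. Of those 57, 8 were lower (14.0%, against 20.9% of all genes) and 15 higher (26.3%, against 23.7%). In carnitine synthesis and other carnitine transport, 4 of 7 genes were tested, with 1 lower, 1 higher and a median log2 fold change of 0.12. Each direction thus held 25% of the list, close to the 20.9% and 23.7% of all genes. ALDH9A1, an enzyme of carnitine synthesis, rose by 0.27 on the log2 scale, with means of 42.2 ± 0.529 and 51.1 ± 0.555 FPKM (SD, n = 3, limma adjusted p = 3.71e-04). SLC25A29, a mitochondrial carrier of basic amino acids, was the gene called lower, and it lost the call in 5 of 6 fits without 1 sample. SLC22A4, the neighbouring and related transporter of SLC22A5, had a log2 fold change of 0.09 (limma adjusted p = 0.461).

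Malonyl-CoA, made by acetyl-CoA carboxylase under the control of AMPK, is the inhibitor of CPT1. Of 11 genes in that control, 8 were tested, 1 was lower and none was higher (12.5% and 0%, against 20.9% and 23.7% of all genes), with a median log2 fold change of 0.017. The 1 gene was PRKAG2, an AMPK regulatory subunit, at 9.74 ± 0.59 FPKM in sh-NC and 7.83 ± 0.536 in sh-TRAF2 (SD, n = 3). Its log2 fold change was -0.31 (limma adjusted p = 0.00689). ACACA, the carboxylase, had a log2 fold change of 0.05 (limma adjusted p = 0.428). MLYCD, which degrades malonyl-CoA, and ACACB, the carboxylase of the mitochondrial surface, were below the level for testing.

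Upstream of CPT1, long-chain fatty acids are taken up and joined to coenzyme A. Of 15 such genes 9 were tested, 2 were lower and 1 was higher (22.2% and 11.1%, against 20.9% and 23.7% of all genes), with a median log2 fold change of -0.03. ACSL5, a mitochondrial acyl-CoA synthetase, fell by 0.72 on the log2 scale, with means of 1.07 ± 0.0433 and 0.615 ± 0.0977 FPKM (SD, n = 3, limma adjusted p = 0.00569). This change shrank to -0.36 under a pseudocount of 1. ACSL3, the synthetase of lipid droplets, fell by 0.31 on the log2 scale, and DBI, the acyl-CoA binding protein, rose by 0.21. CD36, a fatty acid translocase, was below the level for testing, and ACSL4, at 58.2 FPKM in sh-NC, did not pass the test (log2 fold change -0.03).

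Downstream of CPT2, mitochondrial beta-oxidation shortens the acyl chain in repeated cycles. Of 17 genes 15 were tested, none was lower, and 10, or 66.7%, were higher, against 23.7% of all genes. The median log2 fold change was 0.21. DECR1, which reduces double bonds of unsaturated chains, was read at 4.54, 3.28 and 4.64 FPKM in sh-NC and at 6.88, 6.83 and 7.47 in sh-TRAF2. Its groups did not overlap, and its log2 fold change was 0.77 (limma adjusted p = 0.00148). The acyl-CoA dehydrogenases ACADVL, ACADM and ACAD9 rose by 0.21, 0.31 and 0.28 on the log2 scale, and the isomerase ECI1 by 0.41. Both subunits of the trifunctional protein, HADHA and HADHB, had fold changes of -0.03 and 0.04 and did not pass. ECHS1, ECI2 and ETFA had the highest adjusted p of the 10, and the count ran from 7 to 10 in the fits without 1 sample. It was 8 under quantile normalization and 8 with no trend. Under quantile normalization the log2 fold changes of ECHS1 and ETFA were 0.028 and 0.080 (limma adjusted p = 0.487 and 0.113). The list was chosen with earlier results known, so its direction is a description.

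In peroxisomal beta-oxidation, which feeds CROT and CRAT with shortened chains, 11 of 12 genes were tested, 1 was lower and 2 were higher (9.09% and 18.2%, against 20.9% and 23.7% of all genes). ACOX2, the branched-chain acyl-CoA oxidase, was at 0.5542, 0.4712 and 0.5421 FPKM in sh-NC and at 1.5001, 1.8214 and 1.8048 in sh-TRAF2. It was the largest change in any of these lists, with a log2 fold change of 1.54 (limma adjusted p = 7.98e-05). With a pseudocount of 1 the fold change of this low gene was 0.83, under the fold threshold. ABCD3, the peroxisomal transporter of acyl-CoA, rose by 0.61 on the log2 scale, with means of 6.26 ± 0.368 and 9.58 ± 0.578 FPKM (SD, n = 3, limma adjusted p = 2.22e-04). EHHADH, the bifunctional enzyme, fell by 0.70 on the log2 scale (limma adjusted p = 0.0163). It lost that call without sh-NC replicate 1 (limma adjusted p = 0.0608) and without sh-TRAF2 replicate 3 (limma adjusted p = 0.0525), and its log2 fold change was -0.31 with a pseudocount of 1.

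PPARA is a receptor known to switch on many fatty acid oxidation genes. Of 12 transcriptional regulators 10 were tested, 3 were lower and 1 was higher (30% and 10%, against 20.9% and 23.7% of all genes), with a median log2 fold change of -0.19. PPARA was read at 1.748, 1.804 and 1.659 FPKM in sh-NC and at 1.193, 1.363 and 1.146 in sh-TRAF2. The groups did not overlap, with a log2 fold change of -0.46 (limma adjusted p = 0.00822), or -0.29 with a pseudocount of 1. PPARD fell by 0.28 on the log2 scale, with means of 15.0 ± 0.687 and 12.3 ± 0.589 FPKM (SD, n = 3, limma adjusted p = 0.0038). NRIP1, a corepressor, was the third gene called lower, at -0.22. It lost the call without sh-NC replicate 1 (limma adjusted p = 0.0996), sh-TRAF2 replicate 2 (0.0748) or sh-TRAF2 replicate 3 (0.0936), and with no filter on low values (0.0606). NCOR1, also a corepressor, was called higher at 0.12 but lost the call in each of the 6 fits without 1 sample. The coactivator PPARGC1A had a log2 fold change of -0.17 (limma adjusted p = 0.171).

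**Figure D4:**
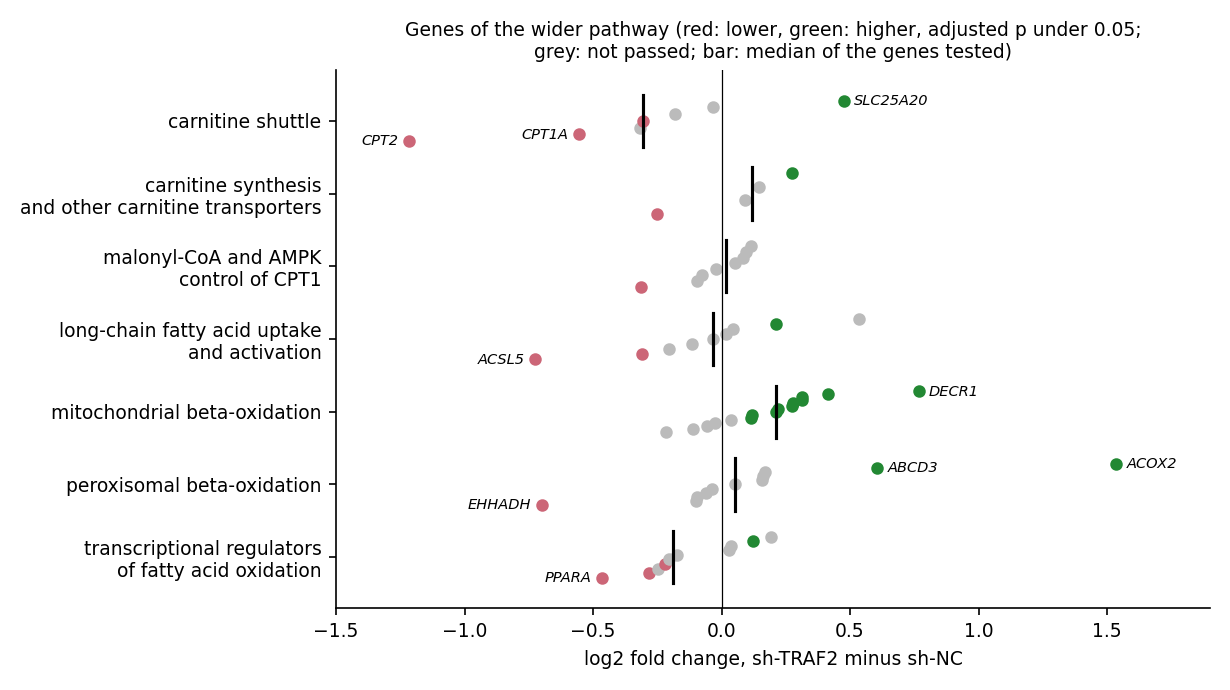
Log2 fold changes (horizontal axis, sh-TRAF2 minus sh-NC) of the shuttle genes tested and of the genes tested in 6 surrounding lists, 1 point a gene, with the median of each list as a black bar. The shuttle genes have a median of -0.31 and spread to both sides, and the mitochondrial beta-oxidation genes have a median of 0.21 with 10 of 15 called higher and none lower.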

How the data were processed

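Libraries were prepared, sequenced and processed by OE Biotech, and the authors deposited their result as FPKM, in a single table covering the 6 U251 samples. The submitters' processing notes name HISAT2, HTSeq, DESeq2 and R 3.2.0. Their roles, the genome build, the annotation and the use of strand are not given in the sources used here. All columns were assigned to a sample by its label. Whole reads per gene were recovered from the spacing of the FPKM values. They give the depth but not the main test.

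Genes with a mean under 0.5 FPKM were dropped. The 2 groups were then compared on log2(FPKM + 0.1) by limma 3.58.1 in R 4.3.3 (eBayes with a trend, two-sided, Benjamini-Hochberg adjustment over 11870 genes). With this pseudocount the changes of weakly expressed genes are understated. The test was run on simulated data in which 200 of 11870 genes were changed. It called 80% of the changed genes and 6 unchanged ones. Far more genes were called in the real data, so the simulation does not show how the test behaves there. Ratios between genes were tested by exact permutation over the 20 assignments of samples to groups. Correlations of same-numbered samples' deviations from their group means were -0.081, 0.072 and 0.073, so the main test had no replicate block.

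The members and gene lists were chosen with earlier results of these data known. Named were TRAF2, the 8 shuttle genes, genes that overlap them, the 3 genes most correlated with CPT2, and, in each list, called genes with a log2 change above 0.5 or else the gene with the smallest adjusted p. Any other gene was named after its values had been seen. Positions are from GENCODE release 29 (GRCh38). Alternatives were pseudocounts of 1 and 0.01, other filters, rescaling to TPM, quantile normalization, a replicate block, no trend, limma-voom on recovered reads, and leaving out each sample.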

Additional observations from a re-analysis of the deposited data

How the results depend on the processing

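Over 15 alternatives the log2 fold changes of CPT2 (-1.28 to -1.03), CPT1A (-0.58 to -0.53), SLC25A20 (0.43 to 0.50) and CRAT (-0.38 to -0.26) kept their direction and passed in each. CPT1C passed in 2 of 15, without sh-NC replicate 2 and under quantile normalization (-0.34, limma adjusted p = 0.0486), while CROT and SLC22A5 passed in none. SLC22A5 ran from -0.092 to 0.016 without 1 sample, and was above 0 without sh-NC replicate 2 (limma adjusted p = 0.883). The log2 ratio of CPT2 to CPT1A was -0.51 and that of SLC25A20 to CPT2 1.48 with a pseudocount of 1. In carnitine synthesis and transport, the count called lower was 0 with no filter and with no trend, and 0 to 1 without 1 sample. In fatty acid uptake, 2 were higher with no filter, and 1 to 2 were higher without 1 sample. At a mean of at least 1 FPKM 1 was lower, since ACSL5 was not tested under that filter. In malonyl-CoA and AMPK control, 0 to 1 were higher without 1 sample. Among peroxisomal genes, 0 were lower at a mean of at least 1 FPKM, where EHHADH was not tested, and 0 to 1 without 1 sample. Among regulators, 0 were higher under TPM, under the replicate block and without any 1 sample. The block, whose numbers do not pair the samples, gave 2539 genes lower and 2912 higher against 2479 and 2818, and changed no shuttle call. All other counts stayed within 1.5 times their value. CPT1B, at 3 reads or fewer, could not be compared at this depth.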
